A study of Mus musculus with 10 samples.

Results

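The 7 genes described here, Pou3f1, Sall2, Zic2, Zic5, Foxd3, Grhl2 and Tcf15, encode transcription factors linked to the formative state, the stage between naive and primed pluripotency. They were taken by symbol from the deposited tables of gene expression, where each has 1 entry among 22867 symbols, and all 7 had a value above 0 in each of the 10 libraries. The series profiled mouse embryonic stem cells (ESCs) and the epiblast-like cells (EpiLCs) made from them, and asked how loss and overexpression of the homeobox gene Otx2 affect this conversion. EpiLC libraries, all of 129SV origin and 48 h after the change to medium with bFGF and serum replacement, numbered 1 of the Otx2-/- line, 1 of R1 with activin A at 20 ng/ml, 1 of R1 without it and 1 of E14. ESC libraries, grown with LIF, PD0325901 at 0.8 µM (a MEK inhibitor) and CHIR99021 at 3.3 µM (a GSK3 inhibitor), comprised 1 of Otx2-/- cells carrying a tetON Otx2 transgene with doxycycline (dox), 1 of the same cells without dox, 1 of the Otx2-/- line, 2 of R1 and 1 of E14. Whether the Otx2-/- and E14 EpiLCs had activin A is not given in the sources used here, nor are the dose and duration of dox, the part of Otx2 that is deleted or the number of Otx2-/- clones.

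In the embryo, epiblast cells leave the naive state around implantation, when fibroblast growth factor signalling rises and naive factors are lost, and pass through a formative state before they can form germ layers or germ cells. Pou3f1 (also called Oct6) is a POU factor of the epiblast and of neural and Schwann cells, and Sall2 is a zinc finger factor of the spalt family. Zic2 and Zic5 are zinc finger factors of the forebrain and neural tube whose genes lie side by side. Foxd3 is a forkhead factor needed for the epiblast and the neural crest, Grhl2 a grainyhead factor that activates epithelial junction genes, and Tcf15 (paraxis) a basic helix-loop-helix factor of somites that Id proteins hold inactive in ESCs. Otx2 itself is a homeobox factor of the epiblast and anterior brain.

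Values are FPKM, fragments per kilobase of transcript scaled to the mapped fragments of the library, summing to between 585995 and 680016 per library. Approximate depth, read from low values of olfactory receptor genes, was between 6270000 fragments (E14 EpiLC) and 21000000 (Otx2-/- ESC), so a 2 kb transcript at 5 FPKM rested on between 63 and 210 fragments. Of the naive factors on a list of 12, the summed level was 181 to 305 FPKM in the 4 EpiLC libraries, 754 in ESC with dox and 1712 to 1987 in the other 5 ESC libraries, which matches the labels of state. Among the ESC libraries, R1 replicate 1 stood apart in Grhl2, in Zic5 and in several markers of other cell types, given with Grhl2. Otx2, the deleted gene, had 15.8 FPKM in Otx2-/- EpiLC, 151 and 107 in R1 EpiLC with and without activin A, and 39.9 in E14 EpiLC. In ESC it had 1059.3 FPKM with dox and 45.8 without dox, 7.85 in Otx2-/- ESC, 5.72 and 9.09 in the R1 replicates and 3.96 in E14. Otx2 RNA was thus present in Otx2-/- EpiLC, below the other EpiLC libraries (log2 fold change -2.38, limma adjusted p = 0.960), and reads outside the deleted part would check nothing. In bulk RNA, fewer cells that express a gene and less RNA per cell cannot be told apart.

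On conversion of R1 and E14 cells, 5 of the 7 factors rose (Pou3f1, Sall2, Grhl2, Zic5 and Zic2), Foxd3 fell, and Tcf15 did not pass the test. The genes that rose did so by very different amounts, and the 5 form 3 patterns by their starting level: Pou3f1, Sall2 and Grhl2 were near 1 or 2 FPKM in ESC, Zic5 was at about 8, and Zic2 was already at about 25. Among all 12244 genes tested, 36.8% had an unadjusted p under 0.05, as did all 7 factors, 20.3% were called, 9.73% rose and 10.6% fell by the same rule (limma on log2(FPKM + 1), line as a covariate, adjusted p under 0.05). The 3 EpiLC libraries lay above all 3 ESC libraries for those 5 factors and below them for Foxd3, which was the case for 19.7% and 25.5% of genes tested.

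Pou3f1 (chromosome 4, 124334888 to 124337899 on mm9) had 42.0 and 72.2 FPKM in R1 EpiLC with and without activin A and 68.9 in E14 EpiLC, against 0.921 and 1.66 in R1 ESC and 1.32 in E14 ESC. Its lowest EpiLC value was that of the culture with activin A, and no ESC value came near the EpiLC range. The mean was 61.0 ± 16.6 FPKM in EpiLC and 1.30 ± 0.371 in ESC (SD, n = 3 each), and Pou3f1 rose by 4.73 on the log2 scale (SE 0.26, limma adjusted p = 0.00142). Here and below, the 3 EpiLC libraries differ in line and in activin A, so their SD is not one of replicates. Sall2 (chromosome 14, 52930851 to 52948345) had 17.5 and 17.2 FPKM in R1 EpiLC with and without activin A and 18.4 in E14 EpiLC, against 2.25 and 1.67 in R1 ESC and 2.05 in E14 ESC. The 3 EpiLC values of Sall2 were the most alike of any of the 7 factors, with a mean of 17.7 ± 0.622 FPKM, against 1.99 ± 0.291 in ESC (SD, n = 3 each; log2 fold change 2.65, SE 0.14, limma adjusted p = 0.00141).

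Grhl2 (chromosome 15, 37162790 to 37293323) had 11.8 and 14.7 FPKM in R1 EpiLC with and without activin A and 19.2 in E14 EpiLC, against 4.44 and 0.868 in R1 ESC replicates 1 and 2 and 0.552 in E14 ESC. R1 ESC replicate 1 alone carried several times the level of the other ESC libraries, yet stayed below each EpiLC library. The same library was high in Esrp1, at 4.85 FPKM against 1.30 in R1 ESC replicate 2 and 0.923 in E14 ESC, and in the streak gene Eomes, at 9.31 against 3.18 and 1.88. T had 2.61 FPKM there against 0.5995 and 0.681, Evx1 1.70 against 0.246 and 0.276, and the trophoblast gene Cdx2 2.55 against 0.215 and 0.219, and the 10 streak and mesoderm genes summed to 15.0 FPKM against 8.30 and 5.72. Other genes of these lists were lower there: the streak gene Gsc had 0.659 FPKM against 3.25 and 1.80. The trophoblast genes Tfap2c and Tead4 had 9.67 FPKM against 17.6 and 16.2, and 9.42 against 12.1 and 16.1. As a list, the 7 trophoblast genes summed to 23.1 FPKM against 31.1 and 33.6. The part of these marker genes in its Grhl2 level was not tested. Grhl2 rose by 2.67 on the log2 scale (SE 0.51, limma adjusted p = 0.0226), and by 3.26 (limma adjusted p = 0.00309) without that replicate. In E14 alone, Grhl2 was 34.9-fold higher in EpiLC than in ESC.

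Zic2 and Zic5 lie on chromosome 14 at 122874605 to 122879550 and 122858381 to 122864880, with 9.7 kb between their spans and, in GENCODE, on opposite strands that point away from each other. Zic2 had 63.1 and 69.2 FPKM in R1 EpiLC with and without activin A and 48.1 in E14 EpiLC, against 18.5 and 27.7 in R1 ESC and 30.3 in E14 ESC. Zic5 had 19.8 and 21.9 FPKM in R1 EpiLC with and without activin A and 22.9 in E14 EpiLC, against 4.09 and 11.2 in R1 ESC and 9.63 in E14 ESC. In both genes R1 ESC replicate 1 was the lowest of the 3 ESC libraries, by a wider margin in Zic5. Zic2 rose by 1.22 on the log2 scale (SE 0.25, limma adjusted p = 0.0270) and Zic5 by 1.37 (SE 0.34, limma adjusted p = 0.0441). Without R1 ESC replicate 1 the log2 fold changes were 0.98 (limma adjusted p = 0.0154) and 0.98 (limma adjusted p = 0.00834).

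Foxd3 (chromosome 4, 99322989 to 99325362) went against the others: it had 10.3 and 9.19 FPKM in R1 EpiLC with and without activin A and 16.2 in E14 EpiLC, against 21.8 and 18.3 in R1 ESC and 27.2 in E14 ESC. In each line EpiLC was below ESC, and E14 was above R1 in both states. Foxd3 fell by 0.88 on the log2 scale (SE 0.14, limma adjusted p = 0.0154), which goes against its place in a list of formative factors. Tcf15 (chromosome 2, 151969344 to 151974832) had 22.9 and 25.1 FPKM in R1 EpiLC with and without activin A and 45.4 in E14 EpiLC, against 20.4 and 19.6 in R1 ESC and 28.9 in E14 ESC. Within each line EpiLC was above ESC. E14 was the higher line in both states, and the R1 EpiLC values lay between the R1 and the E14 ESC values. Tcf15 had a log2 fold change of 0.38 (95% interval 0.02 to 0.74, limma adjusted p = 0.121), which did not pass.

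**Figure D1:**
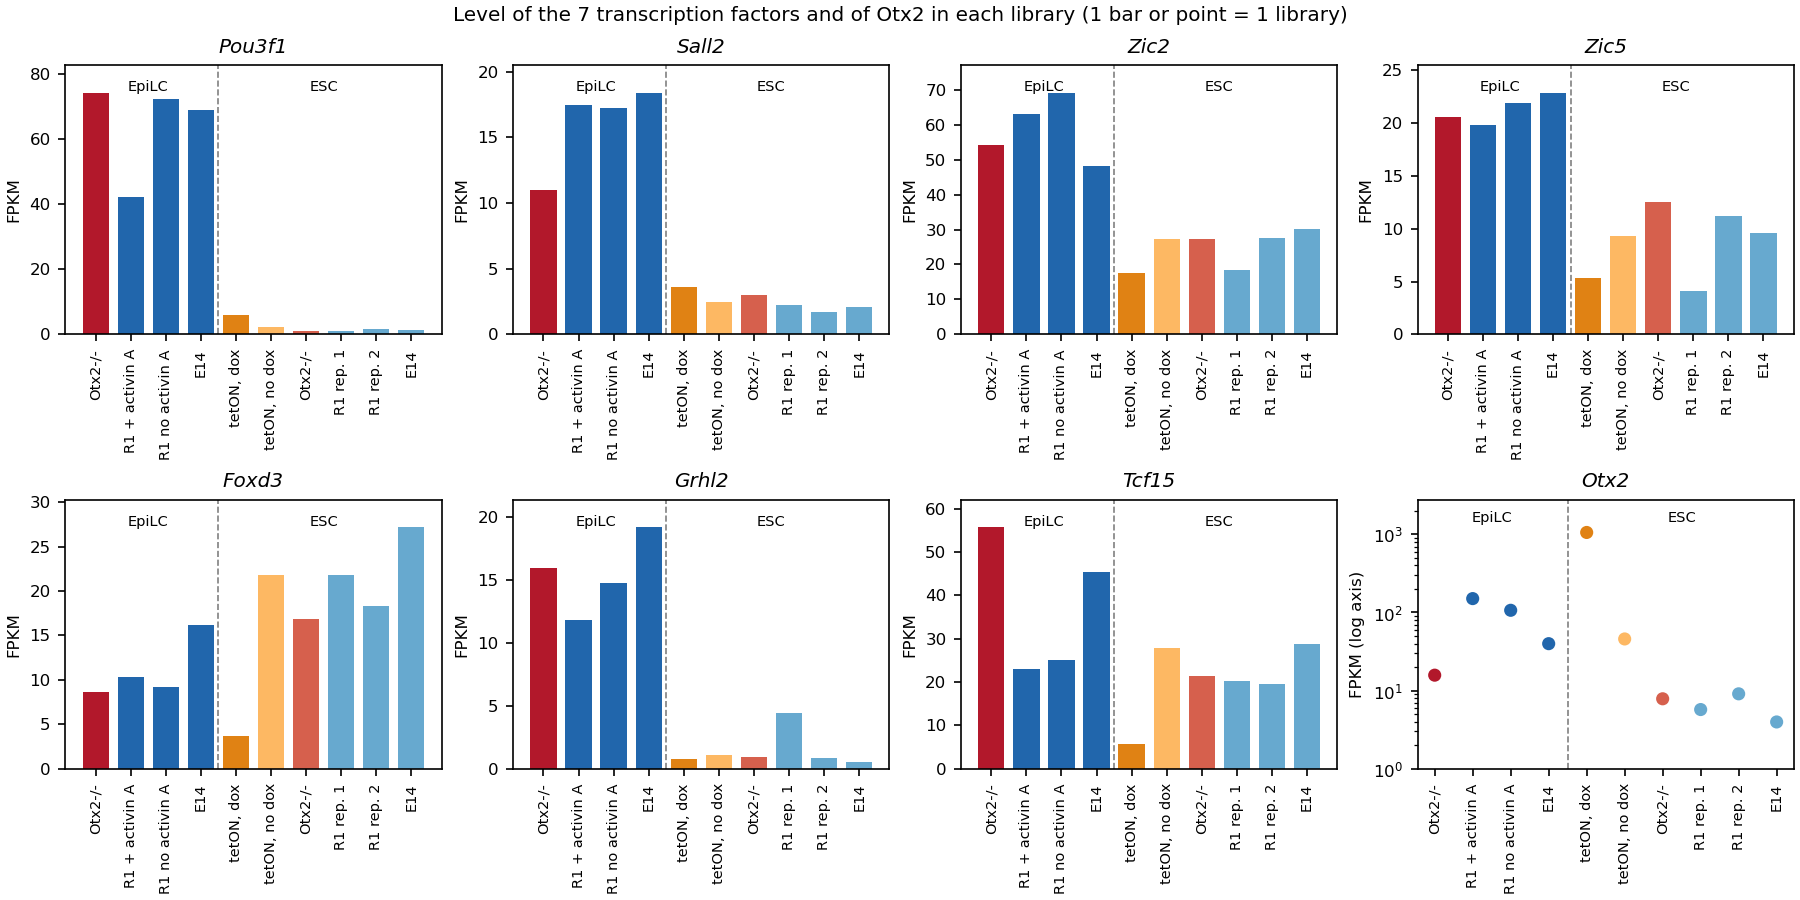
FPKM (vertical axis, from 0 for the 7 factors, logarithmic for Otx2) in each of the 10 libraries, EpiLC left of the dashed line and ESC right of it, with 1 bar or point per library. Pou3f1, Sall2 and Grhl2 were near the bottom of the axis in ESC and high in EpiLC, while Foxd3, Tcf15 and Zic2 had their lowest bars in ESC with dox (3.71, 5.77 and 17.5 FPKM).

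Which of these calls held depended on single libraries, since 3 libraries stood against 3. Pou3f1 and Sall2 passed in each of the 6 fits that left out 1 library. The call for Zic2 was lost on omitting R1 EpiLC without activin A (limma adjusted p = 0.132), R1 EpiLC with activin A (0.116), R1 ESC replicate 2 (0.0596) and E14 EpiLC (0.0501). That for Zic5 was lost on omitting R1 EpiLC without activin A (limma adjusted p = 0.169), R1 EpiLC with activin A (0.145), E14 EpiLC (0.136) and E14 ESC (0.131). Foxd3 lost its call without the same 4 libraries (limma adjusted p = 0.109, 0.0868, 0.0612 and 0.0585 in that order). Grhl2 lost it without E14 EpiLC (limma adjusted p = 0.103), E14 ESC (0.0974), R1 EpiLC without activin A (0.0908), R1 EpiLC with activin A (0.0666) and R1 ESC replicate 2 (0.0627). No factor changed direction in any of these fits.

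Promoter sequence was on hand for 3 of the 7 genes, from RefSeq on GRCm38.p6, a later build than the mm9 of the expression tables. They are shown for Foxd3, the factor that fell, for Zic5, and for the GC-rich start of Sall2, the factor that was lowest relative to R1 and E14 in Otx2-/- EpiLC. Each window holds 250 bases before the annotated start and 50 after it, 5′ to 3′ on the gene's strand, and capitals mark TAATCC or TAATCT on either strand, letters that homeobox factors of the Otx type are known to bind.
Foxd3, chr4:99656049-99656348, plus strand: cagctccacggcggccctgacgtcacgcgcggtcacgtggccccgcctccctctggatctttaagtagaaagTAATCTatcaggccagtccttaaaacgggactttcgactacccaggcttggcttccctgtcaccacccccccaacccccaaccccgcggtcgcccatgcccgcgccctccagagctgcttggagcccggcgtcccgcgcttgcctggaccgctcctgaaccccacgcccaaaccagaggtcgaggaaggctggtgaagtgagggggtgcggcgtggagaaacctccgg
Zic5, chr14:122465609-122465908, minus strand: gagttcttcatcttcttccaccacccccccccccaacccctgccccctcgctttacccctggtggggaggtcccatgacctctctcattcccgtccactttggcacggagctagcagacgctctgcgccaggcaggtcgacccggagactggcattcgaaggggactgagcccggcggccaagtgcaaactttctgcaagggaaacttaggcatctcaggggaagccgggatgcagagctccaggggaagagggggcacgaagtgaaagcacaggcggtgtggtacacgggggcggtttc
Sall2, chr14:52316274-52316573, minus strand: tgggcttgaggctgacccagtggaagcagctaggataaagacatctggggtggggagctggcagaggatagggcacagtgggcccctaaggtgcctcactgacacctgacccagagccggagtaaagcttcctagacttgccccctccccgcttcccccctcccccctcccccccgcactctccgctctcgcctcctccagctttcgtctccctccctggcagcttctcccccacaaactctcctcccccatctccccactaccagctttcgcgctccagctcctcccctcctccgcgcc
TAATCC was in none of the 4 windows of these genes and in 7.06% of the 32851 windows of all genes. TAATCT, searched after the windows had been seen, was in the Foxd3 window alone, beginning 178 bases before the start, and in 8.19% of all windows. The windows shown had 65.7%, 62.7% and 65.0% G and C for Foxd3, Zic5 and Sall2, with 25, 15 and 10 CG steps, against a median of 52.7% and 7 over all windows. The other annotated start of Sall2 had 30.3% G and C and 1 CG step, and FPKM per gene does not tell which start was in use.

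The families of these factors did not move as blocks. Of 13 other POU genes, 7 were expressed enough to test (a mean of at least 1 FPKM), of which Pou2f2 rose and 4 fell: Pou4f2, Pou2f3, Pou4f1 and Pou5f1, the gene of the core pluripotency factor Oct4. Pou2f3 averaged 4.57 FPKM in EpiLC and 12.9 in ESC (log2 fold change -1.33, limma adjusted p = 0.0239), and the closest relatives of Pou3f1, namely Pou3f2, Pou3f3 and Pou3f4, stayed below 0.5 FPKM in each of the 10 libraries. In the spalt family Sall2 rose, whereas Sall3 fell to 0.198 FPKM in EpiLC, against 15.2 in ESC (log2 fold change -3.68, limma adjusted p = 0.00371), and Sall4, a pluripotency factor, fell to 23.9 FPKM in EpiLC, against 74.3 in ESC (-1.58, limma adjusted p = 0.0262). Sall1 averaged 34.8 FPKM in EpiLC and 44.0 in ESC and did not pass (limma adjusted p = 0.127). Zic1 and Zic4 did not exceed 0.217 FPKM in any library. In the grainyhead group Grhl1 rose with Grhl2, at 3.28 FPKM in EpiLC and 1.23 in ESC (log2 fold change 0.95, limma adjusted p = 0.0277), Grhl3 lay at -1.07 (limma adjusted p = 0.0592) and the naive factor Tfcp2l1 fell (-4.39). No other Foxd gene of the 3 listed was high enough to test, with Foxd1 at 1.19 FPKM in R1 ESC replicate 1 and otherwise low.

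Genes that Grhl2 is known to act on, or that mark the same epithelial type, largely rose with it. Of 15 listed, 14 were tested and 10 rose and 0 fell, with a median log2 fold change of 2.50, against -0.09 over all genes tested. Among all genes tested 9.73% rose and 10.6% fell. The list was chosen with earlier results of these data known, so its count is a description and not a test of Grhl2 action. Cldn7, a tight junction gene, averaged 56.1 FPKM in EpiLC and 1.69 in ESC (log2 fold change 4.39, limma adjusted p = 0.000793). Esrp1, a regulator of epithelial splicing, averaged 42.1 FPKM in EpiLC and 2.36 in ESC (3.86), and Krt18 and Rab25 rose by 3.86 and 3.29 on the log2 scale. The cadherin gene Cdh1, a known Grhl2 target, was already at 82.5 FPKM in ESC and averaged 135 in EpiLC, which did not pass (log2 fold change 0.76, limma adjusted p = 0.109). Of the partners and inhibitors of Tcf15, the inhibitor genes Id3 (-2.72), Id4 (-2.37) and Id1 (-2.12) fell, Id2 was at 0.34 without passing (limma adjusted p = 0.486), and the 3 partner genes Tcf3, Tcf4 and Tcf12 did not pass. Tcf15 RNA itself was not called, while 3 of the 4 Id genes listed fell by more than 4-fold. The Id3 call (limma adjusted p = 0.0452) rested on uneven ESC values. They were 38.2 and 5.42 FPKM in R1 ESC replicates 1 and 2 and 16.6 in E14 ESC. Whether the activity of Tcf15 changed was not tested.

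Of 20 other genes of the formative and primed epiblast, 11 rose and 0 fell, with a median log2 fold change of 1.23. The lists in this paragraph too were chosen with earlier results of these data known, so their counts only describe. The largest were Fgf5 (4.29), Krt18 (3.86), Otx2 (3.65) and Pim2 (3.41), and Krt18 and Cldn6 stand in the epithelial list too. Of the 12 naive factors 11 fell and Dppa3 rose, with a median of -3.27. Markers of other cell types moved with the state: the summed level of 10 neural genes was 15.9 to 36.3 FPKM in the 4 EpiLC libraries and 47.8 to 63.7 in the 5 ESC libraries without dox, most of the ESC sum being Tubb3, and that of 8 primitive endoderm genes 46.4 to 55.7 and 20.4 to 23.9, most of the EpiLC sum being Lamb1. The listed genes of these types were not uniformly low, as read after their values were seen. Neurog2, Sox17, Mesp1, Elf5 and Col3a1 did not exceed 0.135, 0.256, 0.165, 0.188 and 0.078 FPKM in any library, but Sox1 reached 7.73 FPKM in Otx2-/- EpiLC, and Gsc, Hand1 and Gata4 reached 8.18, 3.12 and 3.08 FPKM in ESC with dox. Eomes, T and Cdx2 had their highest values, 9.31, 2.61 and 2.55 FPKM, in R1 ESC replicate 1. For 10 primitive streak and mesoderm genes the sums were 5.65 to 9.98 FPKM in EpiLC and 5.48 to 15.0 in ESC, for 7 trophoblast genes 5.81 to 22.1 and 23.1 to 34.9, and for 7 fibroblast genes 6.24 to 9.64 and 4.06 to 6.26. Their part in the results was not tested.

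**Figure D2:**
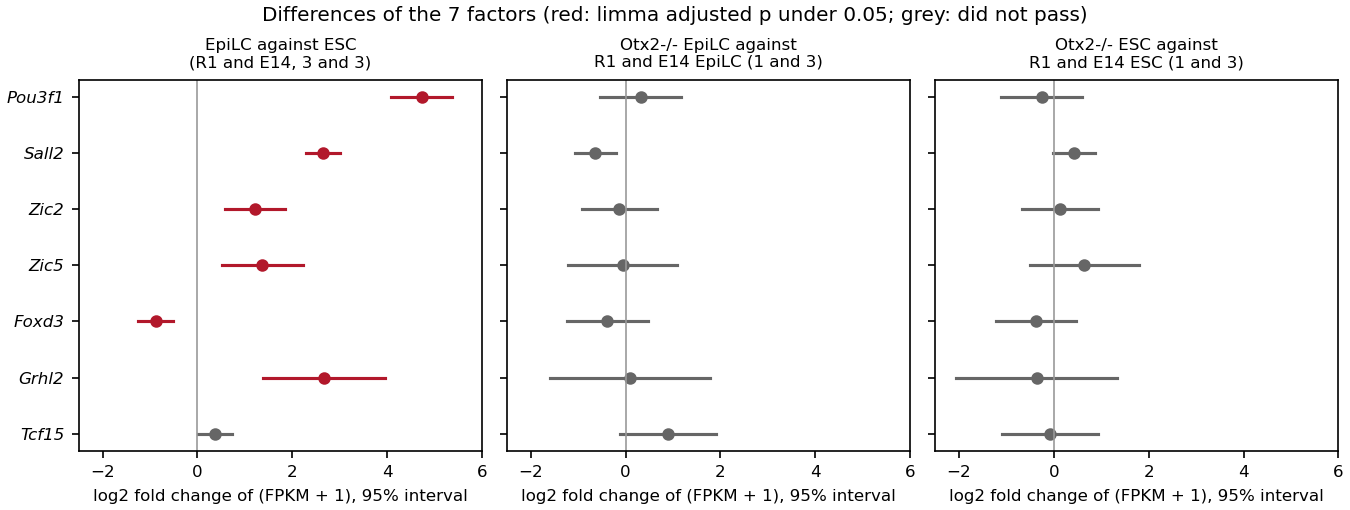
Log2 fold change of (FPKM + 1) with its 95% interval for each factor in 3 comparisons, red where the limma adjusted p was under 0.05. In EpiLC against ESC 5 factors lie right of 0 and Foxd3 left of it, and none passed where Otx2-/- cells were set against the wild-type lines.

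In Otx2-/- EpiLC none of the 7 differed from R1 and E14 EpiLC by the test (limma adjusted p of 0.960 or more, and 1 of 7, Sall2, at an unadjusted p under 0.05), where 0.163% of 12271 genes were called (0.139% higher and 0.0244% lower) and 3.59% had an unadjusted p under 0.05. Grhl2 had 15.9 FPKM in Otx2-/- EpiLC, against 11.8 to 19.2 in R1 and E14 EpiLC. Zic2 had 54.1 FPKM in Otx2-/- EpiLC, against 48.1 to 69.2, and Zic5 20.6, against 19.8 to 22.9. These 3 factors lay within the range of the other EpiLCs. Pou3f1, at 74.2 FPKM in Otx2-/- EpiLC against 42.0 to 72.2 in R1 and E14 EpiLC, and Tcf15, at 55.8 against 22.9 to 45.4, were above it, as were 26.3% of genes tested. Sall2, at 11.0 FPKM in Otx2-/- EpiLC against 17.2 to 18.4, and Foxd3, at 8.60 against 9.19 to 16.2, were below it, as were 26.9%.

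A p that misses the threshold does not show equal levels, and the intervals give the sizes that remain possible. For Sall2 the log2 fold change was -0.64 (95% interval -1.08 to -0.20, limma adjusted p = 0.960), and the Otx2-/- EpiLC level was 62.2% of the R1 and E14 mean. Over 13 alternatives the value stayed between -0.68 and -0.61 and the adjusted p between 0.413 and 1. For Tcf15 it was 0.89 (95% interval -0.12 to 1.90, limma adjusted p = 0.960), 179% of that mean, for Pou3f1 0.32 (-0.54 to 1.17) and for Foxd3 -0.39 (-1.24 to 0.46). For Zic2 it was -0.13 (-0.93 to 0.66) and for Zic5 -0.06 (-1.21 to 1.09). Grhl2, at 0.08 (-1.60 to 1.77), had the widest interval. The single Otx2-/- library was assumed to vary like the others, so these intervals measure the spread between few libraries. Activin A in the Otx2-/- culture is not given, and it cannot be told apart from the genotype. Within R1 EpiLC, activin A went with log2 ratios between -0.77 for Pou3f1 and 0.15 for Foxd3, and 0 of the 7 differed by 2-fold or more, against 2.14% of genes (1.07% higher and 1.07% lower) that reached 5 FPKM in that pair.

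In Otx2-/- ESC none of the 7 differed from R1 and E14 ESC by the test (limma adjusted p = 1 for each, and 0 of 7 at an unadjusted p under 0.05), where 0.139% of genes were called (0.0896% higher and 0.0489% lower) and 1.08% had an unadjusted p under 0.05. Sall2 had 3.01 FPKM in Otx2-/- ESC, against 1.67 to 2.25 in R1 and E14 ESC, and Zic5 12.5, against 4.09 to 11.2, and both were above that range, as were 15.4% of genes. Pou3f1 had 0.906 FPKM in Otx2-/- ESC, against 0.921 to 1.66, and Foxd3 16.8, against 18.3 to 27.2, and both were below it, as were 17.5%. The other 3, Zic2 (27.4 FPKM), Grhl2 (0.945) and Tcf15 (21.3), were within it.

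Between the single Otx2-/- EpiLC and ESC libraries, 6 of the 7 factors were higher in EpiLC and Foxd3 was lower. Their median log2 ratio was 1.35, against -0.05 over all genes that reached 5 FPKM in the pair. By the rule for pairs of libraries (a log2 ratio of at least 1 in size on the FPKM + 1 scale and 5 FPKM in 1 of the pair, with no replicate check), 4 factors were higher and 0 lower, against 6.99% and 8.47% of genes (15.5% in either direction). The 4 were Pou3f1 (log2 ratio 5.30), Grhl2 (3.12), Sall2 (1.58) and Tcf15 (1.35), while Zic2 was at 0.96, Zic5 at 0.67 and Foxd3 at -0.89. The test of the difference between this response and that of R1 and E14 called none of the 7 (limma adjusted p of 0.997 or more, and 1 of 7 at an unadjusted p under 0.05), where 0.277% of genes were called (0.179% higher and 0.0978% lower) and 1.58% had an unadjusted p under 0.05. Sall2 had the response furthest below that of R1 and E14, by a log2 difference of -1.07 (95% interval -1.69 to -0.44, limma adjusted p = 0.997), and Tcf15 the one furthest above, by 0.97 (-0.46 to 2.40).

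**Figure D3:**
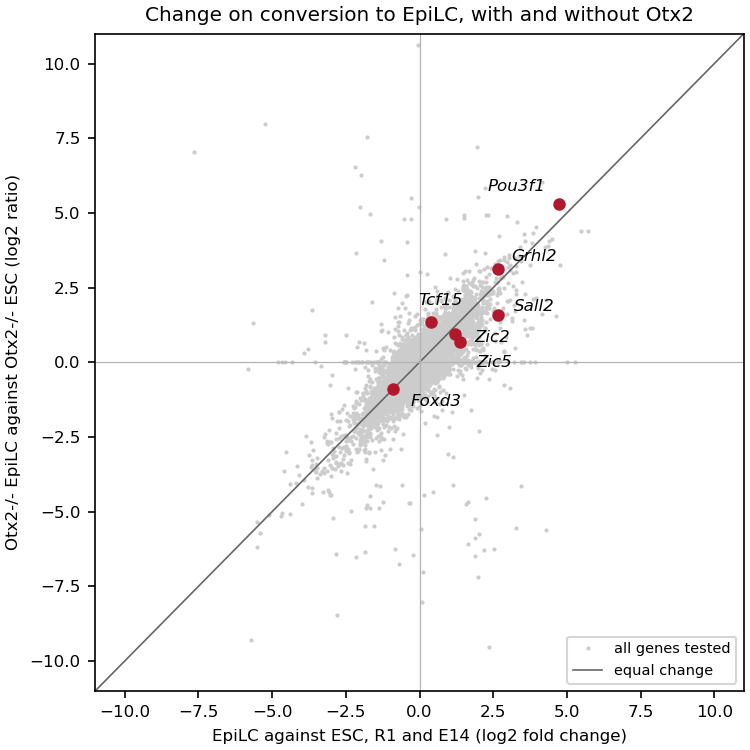
Change on conversion in Otx2-/- cells (vertical axis, log2 ratio of 1 library to 1) against that in R1 and E14 (horizontal axis, log2 fold change of 3 libraries to 3), with all genes tested in grey and the 7 factors in red. Pou3f1 (5.30 and 4.73) and Grhl2 (3.12 and 2.67) lie close to the line of equal change, Sall2 (1.58 and 2.65) below it and Tcf15 (1.35 and 0.38) above it.

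With dox the 5 factors that rose in EpiLC stayed below their EpiLC levels, and Foxd3 and Tcf15 were low. How often other genes that rose in EpiLC also stayed below it with dox was not counted. In Otx2-/- tetON Otx2 ESC, Foxd3 had 3.71 FPKM with dox and 21.8 without dox, and Tcf15 had 5.77 with dox and 27.8 without dox. Both values with dox were the lowest of the 10 libraries, below the EpiLC values as well, and so was that of Zic2, given below. The share of all genes that were lowest of the 10 in this library was not counted. The log2 ratios were -2.28 for Foxd3 and -2.09 for Tcf15, or 17.0% and 20.8% of the level without dox. Among 9304 genes that reached 5 FPKM in this pair, 5.71% were lower by 2-fold or more and 6.42% higher (12.1% in all), and 4.57% were lower by that much and also below all 5 other ESC libraries.

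Pou3f1 was the factor that was higher by this rule, with 6.01 FPKM with dox and 2.38 without dox (log2 ratio 1.05). This call rests on a level just above the floor of 5 FPKM, and with a floor of 10 FPKM 0 factors were higher. Pou3f1 was above all 5 other ESC libraries, as was Sall2, and 28.4% of genes were too, or 6.1% with the 2-fold rule added. The level of Pou3f1 with dox was 9.85% of the R1 and E14 EpiLC mean. Sall2 had 3.59 FPKM with dox and 2.46 without dox, 20.3% of that mean, and did not reach 5 FPKM. Grhl2 had 0.803 FPKM with dox and 1.11 without dox, 5.26% of that mean, and remained within the range of the other 5 ESC libraries. Zic2 had 17.5 FPKM with dox and 27.2 without dox (log2 ratio -0.61), just below the lowest other ESC library at 18.5 and the lowest of the 10, and 33.8% of genes were below all 5. Zic5 had 5.37 FPKM with dox and 9.31 without dox (log2 ratio -0.69), which was above the 4.09 of R1 ESC replicate 1. Set beside the conversion of R1 and E14, Zic2, Zic5 and Grhl2 were thus not higher with dox, whereas Foxd3 was lower in both settings.

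**Figure D4:**
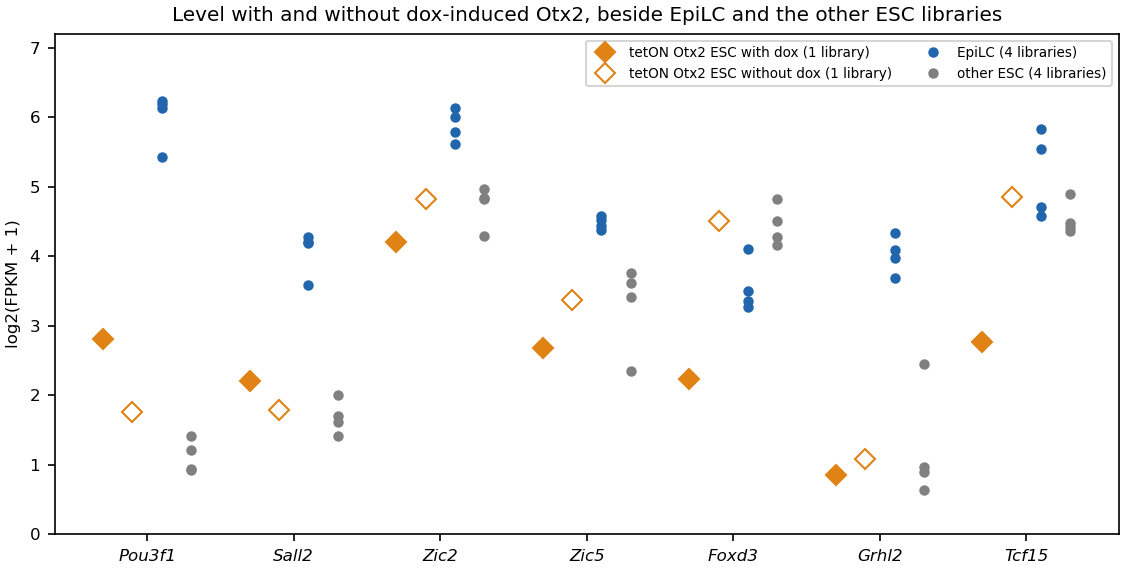
Log2(FPKM + 1) of each factor in tetON Otx2 ESC with dox (filled orange diamond) and without dox (open diamond), beside the 4 EpiLC libraries (blue, Otx2-/- included) and the 4 other ESC libraries (grey). The filled diamonds of Foxd3, Tcf15 and, by a small margin, Zic2 lie below each other point of their column. Those of Pou3f1 and Sall2 lie above the ESC points and below the EpiLC points.

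The surroundings of the factors with dox differed from those in EpiLC too. Of 12 naive factors, 8 were lower by 2-fold or more with dox and 1, Dppa3, was higher, with a median log2 ratio of -1.34, against -0.06 over all genes in the pair. Of the relatives of the 7 factors, Sall3 had 2.72 FPKM with dox and 11.8 without dox, Sall1 14.9 and 38.6, and Pou5f1 440 and 1088. Sall4 went the other way, at 124 FPKM with dox and 67.1 without dox (log2 ratio 0.88, short of the 2-fold rule). Of the 9 epithelial genes that reached 5 FPKM in the pair, 4 were higher (Krt18, Krt8, Cldn7 and Cldn6) and Cldn4 was lower, beside a Grhl2 level of 0.803 FPKM. Krt18 had 144 FPKM with dox and 2.66 without dox, and Esrp1 1.49 and 1.34. Of 13 other formative and primed genes that reached 5 FPKM, 5 were higher and 2 lower. The 5 include Otx2, the gene that dox induces, whose place there was fixed by the design. Krt18 was also among those higher, and Etv4 (6.10 FPKM with dox and 29.7 without dox) among those lower. None of the 6 partners and inhibitors of Tcf15 in the pair passed the 2-fold rule. The summed neural markers were at 19.5 FPKM with dox and 63.7 without dox, and the primitive endoderm markers at 48.5 and 20.4. These differences lay mostly in Tubb3 (2.50 FPKM with dox and 46.4 without dox) and Lamb1 (38.6 and 7.73). Against the sums, Nes was higher with dox (12.9 and 5.12 FPKM) and Lama1 lower (2.93 and 9.94). The part of these markers in the ratios of the factors was not tested. The library with dox rested on about 9270000 fragments.

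The tetON cells without dox already had more Otx2 RNA than Otx2-/- ESC (log2 ratio 2.40), and 0 of the 7 factors differed between these libraries by the 2-fold rule, against 2.7% of genes (1.34% higher and 1.36% lower). Pou3f1 had 2.38 FPKM in the tetON cells without dox and 0.906 in Otx2-/- ESC (log2 ratio 0.83, with both under 5 FPKM), the largest difference of the 7. Tcf15 had 27.8 and 21.3 FPKM in these libraries and Foxd3 21.8 and 16.8. Zic5 had 9.31 and 12.5, and Zic2 27.2 and 27.4. Otx2 RNA increased in the order Otx2-/- ESC, tetON ESC without dox and tetON ESC with dox, with 1 library each. In that order Pou3f1 was at 0.906, 2.38 and 6.01 FPKM, Zic5 at 12.5, 9.31 and 5.37, and Zic2 at 27.4, 27.2 and 17.5. Neither Foxd3 nor Tcf15 was lower at the middle step, and Sall2 and Grhl2 did not step in a single direction. The first step of Zic2 was a log2 ratio of only -0.01. How many of all genes step in a single direction over these libraries was not counted, so these orders only describe. With single libraries, a relation to the amount of Otx2 was not tested.

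The genes most like each factor over the 10 libraries were found by Pearson's r of log2(FPKM + 1) among 9902 genes, as a description in which all genes share the same libraries. Pou3f1 was followed most closely by Acsl5 (r = 0.989), which encodes an acyl-CoA synthetase, Tmem30b (0.988) and Prom1 (0.987), and Sall2 by Cthrc1 (0.987), Akr1b10 (0.984) and Tmem125 (0.984). Grhl2 was followed by Bnipl (r = 0.989), Esrp1 (0.987) and Vrtn (0.986), of which Esrp1 ranged from 0.923 to 42.6 FPKM. Zic2 was followed by G2e3 (r = 0.977), the activin receptor gene Acvr2b (0.976) and Ero1l (0.975), and Zic5 by Idh3a (0.978), Glt1d1 (0.977) and Ttf2 (0.975). Neither Zic gene was among the 3 closest to the other. Tcf15 was followed by the metalloprotease gene Adam19 (r = 0.969), the retinoic acid receptor gene Rarg (0.962) and Armc1 (0.955), and Rarg had 25.7 FPKM with dox and 53.8 without dox. Foxd3 had the loosest matches, Fkbp5 (r = 0.954) and the replication genes Mcm3 (0.949) and Mcm10 (0.937).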

How the data were processed

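RNA was measured in 10 libraries. The deposited values are FPKM per gene, which the authors made with TopHat and Cufflinks on mm9, per the submitters' processing notes (their versions were not given in the sources used here). RNA selected for poly(A) was primed with random hexamers, per the labels' protocols, with no step that marks the strand, so overlapping genes share reads. Of 23112 entries, 17 exact repeats were dropped and entries with the same symbol summed, which left 22867. Depth was approximated from the 25th percentile of the values above 0 of short olfactory receptor genes and is rough.

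Tests used limma 3.58.1 in R 4.3.3 (two-sided, with a trend of variance on level) on log2(FPKM + 1), a scale that understates changes of low genes, for genes averaging 1 FPKM or more, adjusted by Benjamini-Hochberg over all genes tested. EpiLC against ESC used 6 R1 and E14 libraries with line as a covariate and no term for activin A. Otx2-/- comparisons used 8 libraries with 1 mean per group. The code was tested on simulated data. Pairs of single libraries have no test. Per the labels' protocols, the cultures were independent, and p-values reflect the spread of few libraries. The members and lists were chosen with earlier results of these data known. Besides the 7 members and Otx2, genes named are up to 4 of each list with the largest changes among those called, relatives that reached 5 FPKM, and the 3 genes most like each member; Cdh1, Id2, Zic1, Zic4, Pou3f2 to Pou3f4, Foxd1, Tcf3, Tcf4, Tcf12, Tubb3, Lamb1, other marker genes and further list members were added after their values were seen. Alternatives were another pseudocount (0.1), no filter or a mean of 5 FPKM, median-ratio scaling, no trend, another line term, fewer libraries, and a 10 FPKM floor for pairs. One relative of the 7 genes is not reported here.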

Additional observations from a re-analysis of the deposited data

How the results depend on the processing

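For single factors, 401 of 434 alternative values were counted as unchanged. In the limma comparisons this meant the same direction and the same side of the threshold. For pairs of libraries it meant a shift smaller than the SD of the R1 and E14 ESC libraries, or EpiLC libraries for activin A. A floor does not alter a ratio, so a pair call lost at the 10 FPKM floor could still count as unchanged. In the limma comparisons of Otx2-/- cells, where no factor was called, labels changed only by direction. The pooled count therefore says little about the calls. The 18 values that lost a call were all in EpiLC against ESC. Of 12 alternatives each, Pou3f1 and Sall2 passed in 12, Zic2 and Foxd3 in 8, and Zic5 and Grhl2 in 7. None of the reversals below concerned a value that had passed. No paired analysis was possible by replicate number because only the R1 ESC libraries carry such numbers. EpiLC and ESC were compared within lines by the line covariate, and without it 1316 genes rose and 1537 fell, with the same counts of factors called (5 and 1). Zic5 lost its EpiLC call with no filter (limma adjusted p = 0.0584). Leaving out 1 library at a time, the genes that rose in EpiLC numbered between 211 and 1890 and those that fell between 187 and 2228, and the factors between 2 and 5 and between 0 and 1. With a mean of at least 5 FPKM, 672 genes rose. In Otx2-/- EpiLC the leave-outs gave between 18 and 24 genes higher and between 2 and 21 lower, no filter gave 53 and 6, and a term for R1 or E14 gave 5 lower. In Otx2-/- ESC the leave-outs gave between 13 and 20 higher and between 5 and 10 lower, no filter and ESC libraries alone gave 29 higher each, a mean of at least 5 FPKM gave 0 higher, and a pseudocount of 0.1 gave 11 lower. For the difference in response, the leave-outs gave between 23 and 28 higher and between 13 and 23 lower, no filter 37 higher, and a mean of at least 5 FPKM 9 higher and 2 lower. At a floor of 10 FPKM, 0 factors were higher with dox. With a term for R1 or E14, the Otx2-/- EpiLC log2 fold change was 0.031 for Zic5 and -0.0034 for Grhl2, and that of Tcf15 in Otx2-/- ESC was 0.15. Over the leave-outs, Grhl2 in Otx2-/- EpiLC lay between -0.075 and 0.25. In Otx2-/- ESC, Zic2 lay between -0.078 and 0.26, Grhl2 between -0.71 and 0.19, and Tcf15 between -0.18 and 0.088. In the difference in response, Foxd3 lay between -0.16 and 0.22 and Grhl2 between -0.11 and 0.80. The cause was not tested. Depth limits low genes such as Grhl2 in ESC, and each Otx2-/- or dox state has 1 library.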

Other observations

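The span between Zic5 and Zic2 on mm9 holds the entry 2610035F20Rik (chromosome 14, 122869598 to 122874421), chosen after its values were seen. It had 9.50 FPKM in Otx2-/- EpiLC, 3.59 and 4.001 in R1 EpiLC with and without activin A, and 1.71 in E14 EpiLC. In ESC it had 2.28 FPKM with dox, 4.60 without dox, 1.56 in Otx2-/- ESC, 2.04 and 1.26 in the R1 replicates and 4.80 in E14. Otx2-/- EpiLC was the highest of the 10 libraries, while Zic2 and Zic5 lay there within the range of the other EpiLCs. No test was made of this entry, and reads shared with Zic2, which begins 184 bases away, were not examined.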
